A study of Homo sapiens with 3 samples.

Results

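Nucleoporins, importins and exportins, the genes that build the nuclear pore and carry cargo through it, were followed across 3 human embryonic stem (ES) cell lines. Members were the probes whose annotated gene symbol was NUP, KPNA or IPO followed by digits, or 1 of 21 further named transport genes. The rule found 60 probes for 53 genes, out of 16225 genes that the named probes read. It used no measured value. XPO6, KPNA7 and NUP188 had no named probe in the table and were not analysed here. The samples were the undifferentiated lines H9, BG03 and ES01, kept on irradiated mouse embryonic fibroblasts in DMEM/F12 medium with serum replacement and FGF2. Each line gave total RNA for 1 Illumina bead array, and the 3 lines form 1 group. The labels do not name separate cultures or passages, so differences of line, culture and array cannot be told apart. The mouse ES cells and epiblast stem cells of the study's design are not analysed here.

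The nuclear pore complex is a ring of nucleoporins set in the nuclear envelope. Its Y complex and inner ring form the scaffold, and nucleoporins rich in phenylalanine-glycine repeats fill the channel. Importin alpha proteins bind the classical nuclear localization signal and ride with importin beta, while other importins and the exportins bind cargo directly. The GTPase Ran sets direction: its GTP form, made on chromatin, releases import cargo in the nucleus and loads exportins. In pluripotent cells the importin alpha KPNA2 is known to carry POU5F1 into the nucleus.

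Promoter sequence is printed for the 5 transport genes that differed at least 1.5-fold between 2 lines and for TPR, which was chosen after its values were seen because it barely moved. Each is the 250 bases before the gene's start in RefSeq, read 5′ to 3′ on the gene's strand. Capitals mark matches, on either strand, to an E-box (CACGTG), the letters CCAAT, a GC box (GGGCGG) or an ETS motif (CCGGAAGT).
IPO8 (GRCh38.p14, chr12:30695870-30696119, minus strand): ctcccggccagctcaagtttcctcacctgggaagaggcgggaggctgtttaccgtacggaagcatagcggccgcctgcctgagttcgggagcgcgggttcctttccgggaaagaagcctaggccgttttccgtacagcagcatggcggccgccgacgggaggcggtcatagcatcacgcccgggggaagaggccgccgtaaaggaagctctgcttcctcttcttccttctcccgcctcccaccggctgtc
NUP98 (GRCh38.p14, chr11:3797547-3797796, minus strand): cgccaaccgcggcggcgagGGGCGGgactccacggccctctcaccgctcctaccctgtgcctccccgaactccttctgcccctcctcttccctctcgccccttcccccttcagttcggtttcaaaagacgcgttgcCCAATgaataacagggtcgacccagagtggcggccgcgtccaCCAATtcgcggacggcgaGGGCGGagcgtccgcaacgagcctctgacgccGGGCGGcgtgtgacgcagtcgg
NUP58 (GRCh38.p14, chr13:25301375-25301624, plus strand): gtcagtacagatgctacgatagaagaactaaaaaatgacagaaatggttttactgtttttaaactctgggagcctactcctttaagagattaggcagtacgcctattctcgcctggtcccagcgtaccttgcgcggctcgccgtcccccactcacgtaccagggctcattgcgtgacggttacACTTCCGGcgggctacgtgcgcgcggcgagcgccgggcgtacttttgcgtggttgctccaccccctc
RANBP2 (GRCh38.p14, chr2:108719232-108719481, plus strand): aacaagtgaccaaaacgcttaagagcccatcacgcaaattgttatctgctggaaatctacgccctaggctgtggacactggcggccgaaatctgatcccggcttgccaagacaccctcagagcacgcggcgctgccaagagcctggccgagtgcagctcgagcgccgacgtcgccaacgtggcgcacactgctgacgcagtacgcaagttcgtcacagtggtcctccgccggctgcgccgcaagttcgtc
NUP42 (GRCh38.p14, chr7:23181798-23182047, plus strand): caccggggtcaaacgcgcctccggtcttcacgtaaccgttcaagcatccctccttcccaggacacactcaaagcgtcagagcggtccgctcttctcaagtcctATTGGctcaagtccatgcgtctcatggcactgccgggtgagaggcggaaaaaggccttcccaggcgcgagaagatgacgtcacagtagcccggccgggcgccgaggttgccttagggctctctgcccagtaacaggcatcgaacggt
TPR (GRCh38.p14, chr1:186375254-186375503, minus strand): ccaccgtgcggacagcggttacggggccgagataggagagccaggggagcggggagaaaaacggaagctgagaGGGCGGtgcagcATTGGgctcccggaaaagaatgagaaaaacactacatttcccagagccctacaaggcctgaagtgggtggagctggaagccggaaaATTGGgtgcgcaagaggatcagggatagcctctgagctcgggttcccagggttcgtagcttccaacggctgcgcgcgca
IPO8 and RANBP2 held none of the 4 motifs in this window. NUP58 held 1 ETS match, NUP42 1 CCAAT match, TPR 2 CCAAT matches and 1 GC box, and NUP98 2 CCAAT matches and 3 GC boxes. So the 5 genes that differed between lines shared no motif of these in all their windows. A match describes letters and is not a binding site, and the lack of one says nothing of the factor.

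Leaving out chromosome 8, RefSeq's promoter table held 61 entries for 47 of the 53 genes. The promoters they are set against include chromosome 8. The ETS motif stood in 8 of the 61 (13.1%), against 5.79% of 13395 promoters of all genes above background and 3.42% of 35116 promoters in the table. The E-box stood in 8 as well (13.1%), against 8.26% and 6.34%, among them those of RAN, KPNA3, IPO4 and IPO7. The CCAAT letters stood in 37.7% against 33.3% and 32.0%. The GC box stood in 49.2%, against 62.2% of promoters of genes above background and 42.6% of all. Median GC content was 62.4%, 64.0% and 58.0% in the same order. Some genes have several entries that overlap, so these shares are descriptions and carry no test.

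Values are intensities after quantile normalization, listed for H9, then BG03, then ES01, and each SD is that of the 3 log2 values (n = 3). A probe counted as above background where it passed the 95th percentile of 215 olfactory receptor probes on its array, which was 11.2, 12.6 and 13.3 units. Each array held 2089034 to 2102778 beads, and the median bead standard error of a log2 mean was 0.08 for bead types of 20 to 100 units, 0.05 for 100 to 500 and 0.04 above 500. Bead codes are not linked to genes here, so this is the precision of beads and not of a named gene. No background was subtracted from the bead intensities here, so their units are not those of the values below. In H9, 39088 of 48925 bead types fell at 20 to 100 units. The error of a dim gene after background subtraction is not given by these values and may be larger. Of 11 measured ES cell markers, 10 were above background in all 3 lines and SOX2 in none. Fibroblast markers were above it in all 3 lines for 6 of 12, with COL3A1 and POSTN in none, and their summed intensity was 1342, 1433 and 1753, of which THY1, which ES cells also express, gave 752, 851 and 824. The summed intensity of the ES cell markers was also highest in ES01, at 26085, 28595 and 33996. The brightest of them were L1TD1 (7436, 8145 and 11006) and DNMT3B (6715, 7558 and 9013). Of the 10 markers, ES01 was highest for 6 and lowest for 2, POU5F1 (270, 287 and 195) and ZFP42 (364, 780 and 247). The sum therefore does not rank the lines by ES cell state. Neuroectoderm markers reached 3 of 8, mesoderm and endoderm markers 5 of 8 and trophoblast markers 1 of 6. Of all 16225 genes, 59.8% were above background in all 3 lines. These marker counts alone therefore do not tell whether such cells were present. The part of feeder or differentiating cells in the values below was not tested. How bright a probe is depends on the probe, so intensities are compared between lines and not between genes.

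Nearly all of the transport machinery was expressed in the 3 lines. Of the 53 genes, 51 were above background in every line, where 59.8% of all 16225 genes were. NUP58, a channel nucleoporin, was above it in H9 and BG03 only. TNPO2, a close relative of the import receptor TNPO1, was above it in none. Each of the 10 functional groups had members above background in all lines: 6 of 6 measured importin alpha genes, 10 of 11 import receptors of the importin beta family, 5 of 5 exportins, 4 of 4 Ran cycle genes, 7 of 7 genes of the Y complex and 4 of 4 of the inner ring. The 3 nuclear basket genes, the 3 transmembrane nucleoporins and the 7 genes of the cytoplasmic face were also above it throughout, as were 2 of 3 channel nucleoporins. TNPO2 is read by 1 probe that was not checked against its transcript, so absence is not shown.

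**Figure D1:**
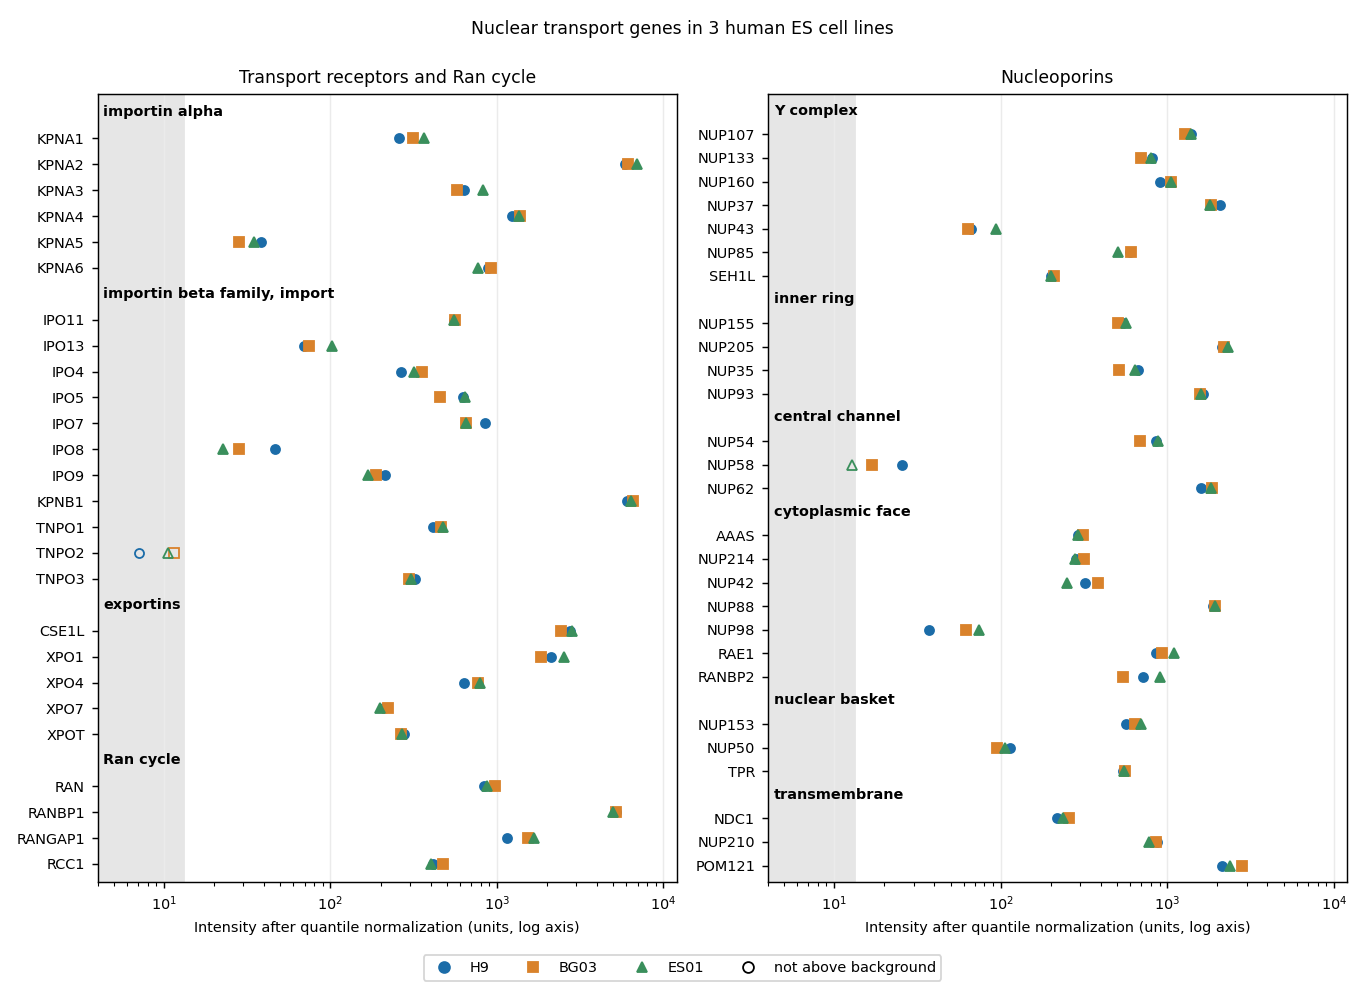
Intensity of each of the 53 transport genes (horizontal log axis, units) in H9, BG03 and ES01 (1 point per line), grouped by role; open symbols are not above background and the grey band ends at the highest of the 3 thresholds. For most genes the 3 points lie on or beside each other, while IPO8, NUP98, NUP58, RANBP2 and NUP42 are spread apart.

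The levels of these genes varied little between the lines. The median SD over the lines was 0.13 on the log2 scale for the 52 genes above background somewhere, against 0.19 for all 11004 such genes, and SDs ran from 0.02 to 0.53. A difference of at least 1.5-fold between any 2 lines was found for 5 of 52 (9.62%), where 26.0% of all genes tested had one. At least 2-fold was found for 1 (1.92%), IPO8, against 8.29%. The transport genes are mostly read by bright probes, and bright probes vary less. Among genes averaging at least 500 units, the median SD was 0.13 for 32 transport genes and 0.13 for all 2975 genes, and 1 of the 32 differed at least 1.5-fold against 8.4%. From 100 to 500 units it was 0.11 for 14 transport genes and 0.18 for 3665 genes, and 1 of the 14 differed against 20.5%. Under 100 units it was 0.39 for 6 transport genes and 0.27 for 4364 genes, and 3 of the 6 differed against 42.6%. By median SD the smaller spread was seen only in the middle class, and by the share past 1.5-fold in the middle and the bright class. The dimmest class rests on 6 transport genes.

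**Figure D2:**
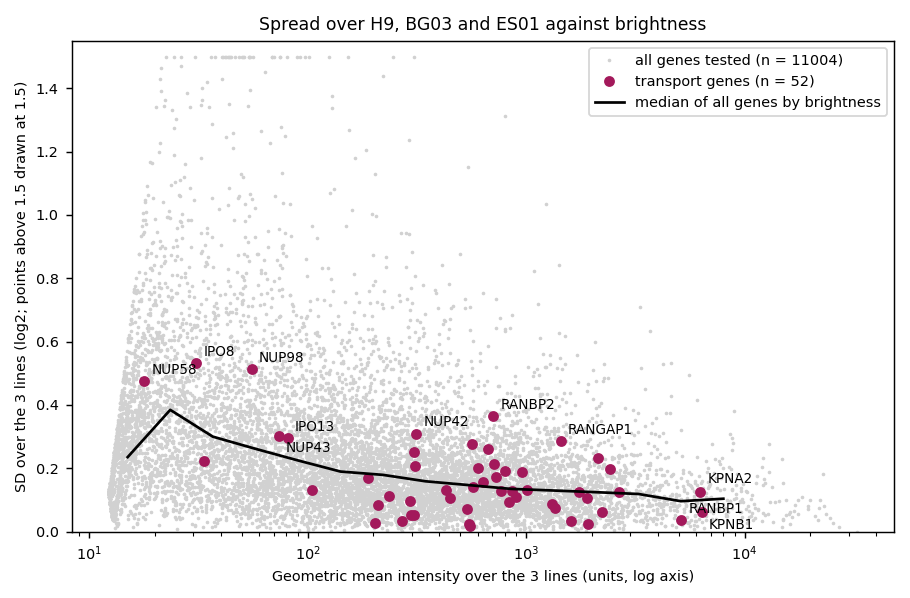
SD over the 3 lines (log2, vertical) against geometric mean intensity (horizontal log axis, units) for all 11004 genes tested (grey) and 52 transport genes (red); the line joins medians of all genes in bins of brightness. IPO8, NUP98 and NUP58 lie at the dim end with the highest SDs of the set, and most other transport genes lie near or under the line.

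No line stood apart across the set after quantile normalization. That step gives the 3 arrays the same distribution of values and so centres differences over all genes near 0. The median log2 difference was 0.04 between BG03 and H9 (29 of 52 higher in BG03), 0.04 between ES01 and H9 (30 of 52 higher in ES01) and 0.01 between ES01 and BG03 (27 of 52 higher in ES01). Over all 11004 genes the medians were 0.03, 0.01 and -0.01. H9 had the lowest value for 21 genes (40.4%, against 37.7% of all genes), BG03 for 16 (30.8%, against 27.3%) and ES01 for 15 (28.8%, against 35.0%). At 1.5-fold, 3 genes differed between BG03 and H9, where 11.9% of all genes did, 3 between ES01 and H9, where 16.3% did, and 2 between ES01 and BG03, where 13.5% did. At 2-fold the counts were 0, 1 and 0, where 3.24%, 5.14% and 3.75% of all genes differed. Scaling the arrays to the same median of all probes moved the medians of all genes for ES01. They became -0.27 between ES01 and H9 and -0.34 between ES01 and BG03, and those of the transport genes -0.23 and -0.34. The medians made equal were 3.5, 3.5 and 4.4 units as deposited, under the background thresholds of 11.2 to 13.3 units. With the median of probes above background made equal instead, the medians of all genes were 0.06 and 0.03 for these pairs. The sign of a gene's difference held under all 4 scalings for 49 of 52 genes between BG03 and H9. It held for 26 of 52 between ES01 and H9 and for 26 of 52 between ES01 and BG03. H9 and BG03 had the same deposited median, so for that pair the same-median scaling changed nothing from the values as deposited. The counts therefore cannot be compared between pairs.

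**Figure D3:**
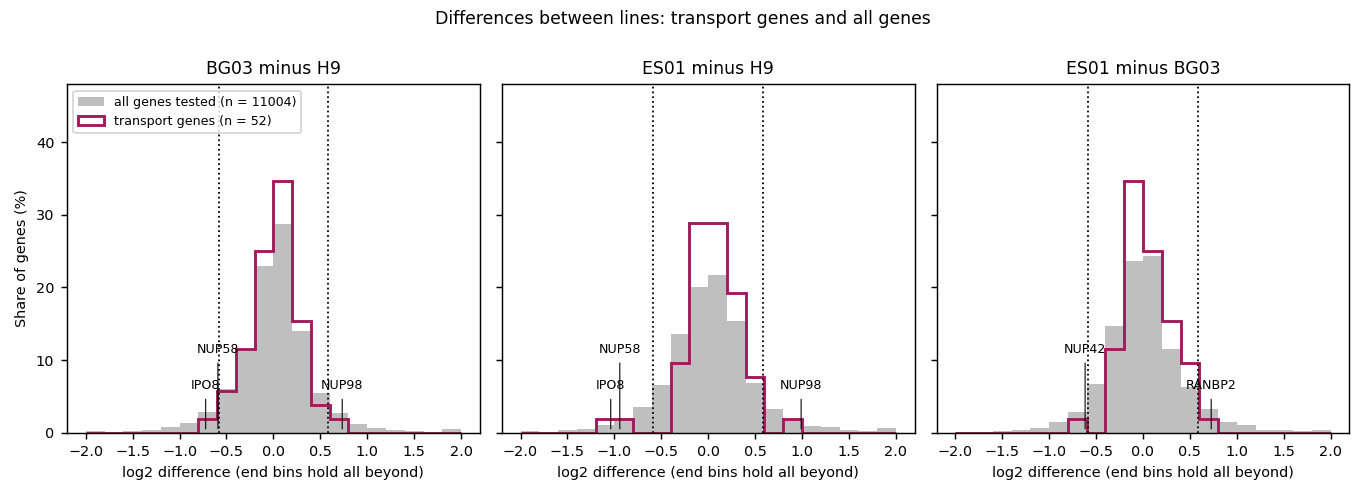
Share of genes (%, vertical) by log2 difference between 2 lines (horizontal) for all 11004 genes tested (grey) and 52 transport genes (red outline); dotted lines mark 1.5-fold. The outlines are centred like the grey bars, and the labelled genes are the 5 beyond the dotted lines.

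With 1 array per line, no replicate checks the difference of a single gene, and sizes are given without a test. IPO8, an importin known to carry SMAD and Argonaute proteins, had intensities of 46.6, 28.2 and 22.7 (log2 SD 0.53). H9 was the high line: the log2 difference was -0.72 for BG03 and -1.04 for ES01, a 1.65-fold and 2.05-fold lower level. For ES01 it stayed between -1.35 and -1.02 in 10 alternatives, which do not include a floor of 50 units. For BG03 it was -0.60 with the 99th percentile as background. That background, 30.8 units in BG03, lies above the 28.2 measured there and stands in for it. NUP98, a repeat-rich nucleoporin whose precursor also yields the Y complex protein NUP96, ran the other way at 37.3, 62.0 and 74.0 (log2 SD 0.51). Its log2 difference from H9 was 0.73 in BG03 (1.66-fold) and 0.99 in ES01 (1.99-fold), and 0.66 in ES01 with the same-median scaling.

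NUP58, which binds NUP62 and NUP54 in the channel, measured 25.5, 16.9 and 12.8, the last under the ES01 threshold of 13.3. H9 was therefore 1.51-fold above BG03 and at least 1.92-fold above ES01, where the threshold stands in for the value. The ES01 difference, -0.94 on the log2 scale, was -0.35 with the mean of all probes of the gene. The other NUP58 probe was above background in no line, so in that mean the thresholds stand in for it. With the 99th percentile as background the ES01 difference was -0.25. That percentile was 25.2, 30.8 and 21.4 units, so it left only the H9 value above background and replaced the others. The 3 genes that differed between H9 and another line were all read by probes under 100 units. A floor of 50 units lies above every value of IPO8 and NUP58, so it says nothing of their differences. For NUP98 it lies above the H9 value only, so it gives no more than a lower bound of the differences from H9.

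RANBP2 and NUP42, both on the cytoplasmic face of the pore, differed between ES01 and BG03 in opposite directions. RANBP2, a giant nucleoporin with SUMO ligase activity that binds Ran, measured 714, 546 and 903 (log2 SD 0.36). Its ES01 level was 1.66-fold the BG03 level (log2 difference 0.73), and H9 lay between. With the same-median scaling the log2 difference was 0.38, under 1.5-fold. NUP42, which takes part in mRNA export, measured 322, 384 and 251 (log2 SD 0.31), and its ES01 level was 1.53-fold under that of BG03 (log2 difference -0.62, and -0.97 with the same-median scaling). RANBP2 shares long stretches of sequence with the RGPD genes, and which of them its probe reads was not checked.

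None of the importin alpha genes reached 1.5-fold between lines after quantile normalization. Their median SD was 0.18, against 0.13 for all transport genes and 0.19 for all genes tested. KPNA2, the family member that carries POU5F1, measured 5855, 6089.8 and 6912 (log2 SD 0.13). KPNA4 was as even at 1226, 1371 and 1348 (log2 SD 0.09), as was KPNA6 at 889.8, 917 and 775 (log2 SD 0.13). The KPNA6 difference between ES01 and BG03 was -0.24, and -0.60, past 1.5-fold, with the same-median scaling, where the median of all genes was -0.34. KPNA1, known for its part in importing STAT proteins and for its rise as neural cells form, was lowest in H9 at 257, against 313 and 363 (log2 SD 0.25). ES01 lay 0.50 above H9 on the log2 scale for KPNA1, and 0.21 with the same-median scaling. KPNA3 was highest in ES01 at 635, 577 and 819 (log2 SD 0.26). Its ES01 level lay 0.51 above that of BG03 on the log2 scale, and 0.15 with the same-median scaling. KPNA5, which stood near the background thresholds, measured 38.3, 28.3 and 34.8 (log2 SD 0.22).

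KPNB1, the importin beta that carries the importin alpha proteins and their cargo, measured 6081, 6601 and 6425 (log2 SD 0.06). After quantile normalization the lines thus differed by no more than 0.12 on the log2 scale. The KPNB1 difference between BG03 and H9 was 0.21 in the values as deposited. Between ES01 and BG03 it was -0.36 with the same-median scaling, where the median of all genes was -0.34. Among the other import receptors, IPO11, TNPO1 and TNPO3 were within 0.20 in every pair of lines after quantile normalization. TNPO1, which imports RNA-binding proteins such as HNRNPA1, measured 414, 464 and 475 (log2 SD 0.11). IPO4, IPO5, IPO7, IPO9 and IPO13 had larger spreads, with log2 SDs of 0.17 to 0.30, but no pair of lines reached 1.5-fold after quantile normalization. Of these, IPO5, IPO7, IPO9 and IPO13 are described further, chosen after their values were seen. IPO5, known to import ribosomal proteins and histones, was lowest in BG03 (log2 difference -0.45 from H9), and IPO13 was highest in ES01 (0.55 above H9, and 0.22 with the same-median scaling). IPO7, which imports linker histones together with KPNB1, had log2 differences from H9 of -0.37 in BG03 and -0.37 in ES01. With the same-median scaling, where the median of all genes between ES01 and H9 was -0.27, IPO7 and IPO9 passed 1.5-fold there: IPO7 stood at -0.64 and IPO9 at -0.66, against -0.34 for IPO9 after quantile normalization.

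Exportins stayed within 1.5-fold in every pair. XPO1, the main export receptor for proteins with a leucine-rich signal, measured 2104, 1832 and 2526 (log2 SD 0.23). ES01 was the high line, with log2 differences of 0.46 from BG03 and 0.26 from H9, which were 0.11 and 0.00 with the same-median scaling. CSE1L, which returns importin alpha to the cytoplasm, measured 2759, 2414 and 2837 (log2 SD 0.12). XPO4 measured 636, 767 and 793 (log2 SD 0.17) and was lowest in H9. The tRNA exporter XPOT at 278, 265 and 269.7 (log2 SD 0.03) and XPO7 at 210.2, 222 and 197 (log2 SD 0.08) were near level.

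In the Ran cycle, only RANGAP1 among the 4 genes had an SD above that of the median gene. RANGAP1, which makes Ran hydrolyse GTP on the cytoplasmic side, measured 1152, 1545 and 1681 (log2 SD 0.29). H9 was the low line, by 0.42 on the log2 scale against BG03 and 0.55 against ES01. The ES01 difference was 0.64, past 1.5-fold, in the values as deposited and 0.31 with the same-median scaling. RAN itself measured 841, 974 and 877 (log2 SD 0.11). RCC1, the exchange factor that loads Ran with GTP on chromatin, measured 415, 476 and 401 (log2 SD 0.13), and its log2 difference between ES01 and BG03 was -0.25, and -0.59, past 1.5-fold, with the same-median scaling. RANBP1, which helps RANGAP1 free Ran from its carriers, measured 5226, 5199 and 4998 (log2 SD 0.04). RAN has many processed copies in the genome, and whether its probe reads any of them was not checked.

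Scaffold nucleoporins stayed within 1.5-fold in every pair of lines after quantile normalization. In the inner ring, NUP155 measured 542, 510.2 and 563 (log2 SD 0.07), NUP205 2137, 2204 and 2324 (log2 SD 0.06) and NUP35 668, 516 and 642 (log2 SD 0.20). The median SD of the 4 inner ring genes was 0.07, the lowest among the 10 groups. In the Y complex, NUP107 measured 1387, 1272 and 1396 (log2 SD 0.07), NUP133 808, 692 and 805 (log2 SD 0.13) and NUP160 906, 1059.97 and 1059 (log2 SD 0.13). The group's differences lay between -0.25 and 0.55 in all pairs, and the 0.55, of NUP43 between ES01 and BG03, was the largest. NUP43 measured 66.8, 63.9 and 93.8, and was chosen for naming after its values were seen, as was NUP85. Between ES01 and BG03, NUP43 reached 0.59, past 1.5-fold, with the median of probes above background made equal, and NUP85 went from -0.25 to -0.60 with the same-median scaling.

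Of the channel nucleoporins, NUP54 at 856, 689.6 and 878 (log2 SD 0.19) and NUP62 at 1587, 1856 and 1834 (log2 SD 0.13) stayed within 1.5-fold, unlike their partner NUP58. On the cytoplasmic face, AAAS measured 292, 310.4 and 291 (log2 SD 0.05), and NUP214, which helps to release exported mRNA, 284, 316 and 279.9 (log2 SD 0.10). In the nuclear basket, NUP153 measured 564, 642 and 699.5 (log2 SD 0.16) and was lowest in H9, while TPR, the filament protein of the basket, was near level at 543, 560.4 and 548 (log2 SD 0.02). The transmembrane nucleoporins anchor the pore. NDC1 measured 219, 256 and 236 (log2 SD 0.11) and NUP210 873, 858 and 774 (log2 SD 0.09). POM121, at 2128, 2796 and 2388 (log2 SD 0.20), was highest in BG03, by 0.39 against H9. It has a near-identical copy, POM121C, that its probe may also read.

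For 5 of the 53 genes several probes were present, by their identifiers either for all isoforms or for a single isoform. For NUP98 the isoform probe was the one used above. Its all-isoform probe measured 17.2, 25.1 and 21.7, lowest in H9 as well, but with log2 differences of 0.54 in BG03 and 0.33 in ES01 against 0.73 and 0.99. The difference between ES01 and H9 was thus 1.99-fold at 1 probe and 1.26-fold at the other. The isoform probe of NUP50, a basket nucleoporin, measured 16.2, 8.22 and 13.9 and was above background in H9 and ES01, while its all-isoform probe measured 114, 94.9 and 106 (log2 SD 0.13). Both were lowest in BG03. Of the 2 TNPO1 isoform probes, 1 was above background in all lines (19.1, 13.2 and 18.2) and the other in none. The first was lowest in BG03, where the all-isoform probe was lowest in H9. The all-isoform probe of NUP155 was above background in all lines and its 2 isoform probes in none. The second NUP58 probe was above it in none, so no other probe bears on the NUP58 difference.

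**Figure D4:**
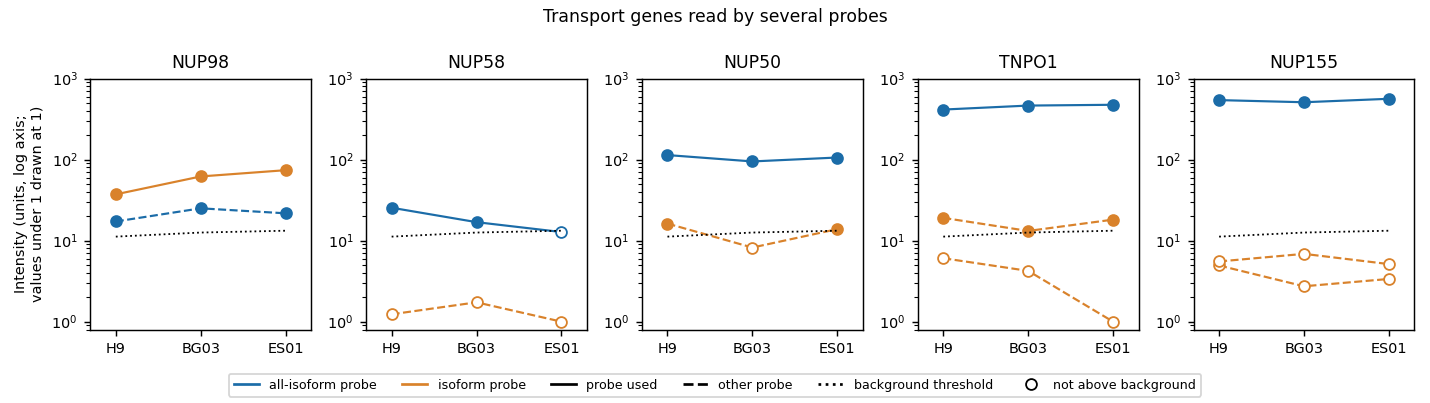
Intensity (vertical log axis, units; values under 1 drawn at 1) of every probe of the 5 transport genes with several probes in H9, BG03 and ES01; solid lines are the probes used, dashed lines the others, the dotted line is the background threshold and open points are not above it. Both NUP98 probes are lowest in H9, and most isoform probes of the other genes lie at or under the threshold.

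Genes of mRNA export and other transport genes outside the set were above background in all lines for 23 of 26 measured, against 59.8% of all genes. Of these, 2 of 23 (8.7%) differed at least 1.5-fold between some pair, against 26.0% of all genes: NXT2 (173, 262 and 192) and THOC3 (2446, 2592 and 1662). RANBP17, RANBP3L and THOC5 were above background in none. Of 16 genes of the nuclear lamina and envelope, 13 were above it in all lines, and 3 of 14 (21.4%) differed at least 1.5-fold: LMNA (117, 183 and 191), SYNE2 (32.6, 22.4 and 35.3) and TOR1AIP2 (8.43, 13.4 and 22.6). The TOR1AIP2 value in H9 was under the threshold of 11.2 units, which stands in for it. These 3 genes have 2, 5 and 2 probes, of which only the brightest is given, for LMNA an isoform probe. LMNA encodes the A-type lamins, known to be sparse in undifferentiated ES cells. Of 16 proliferation genes all 16 were above background, their median SD was 0.12, and 1, the spindle checkpoint kinase BUB1 (1483, 831 and 1274), differed at least 1.5-fold.

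Limma's variance test sets each gene's variance over the 3 lines against that of genes of like intensity. After Benjamini-Hochberg adjustment it called 0 of 52 transport genes and 0.0% of all 11004 genes (0 genes), and the robust fit also called 0 transport genes. The lowest adjusted p in limma's test was 0.978, both among the transport genes and among all genes. Without adjustment, p in limma's test was under 0.05 for 518 of 11004 genes and for 0 of 52 transport genes. With the same-median scaling the test called 88 of 11004 genes and 0 of 52 transport genes. In simulated arrays with the spread of these data the test made no call even for large changes, so the counts of 0 say nothing of whether the transport genes varied.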

How the data were processed

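Expression was measured on 1 Illumina array for each of 3 lines. The authors deposited 1 linear, background-subtracted intensity per probe: 33.8%, 32.8% and 26.3% of values are below 0 in H9, BG03 and ES01. The software and any scaling were not stated in these sources. Bead files, with 1 deposited green intensity for each bead, served for technical error only (beads over 3 median absolute deviations left out).

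Platform annotation named 18468 of 47293 probes with 1 gene symbol each (0 with several, 28825 unnamed here), and 18451 were found by gene ID in RefSeq's GRCh38.p14 table. Probes other than 4 bacterial controls were set to common quantiles (limma 3.58.1, R 4.3.3). A gene was read by its probe with the highest mean. Values under background were set to the array's threshold before log2, and genes above background nowhere were left out of differences. Limma's variance test was tested on simulated data. Python 3.11.15 with numpy 2.4.6, pandas 2.3.3 and matplotlib 3.10.9 did the rest. Values were printed for genes differing at least 1.5-fold, importin alpha, Ran cycle and exportin genes, KPNB1, the first 3 of each nucleoporin group by name, and genes with several probes. Transport genes with values given outside this rule are marked as chosen after their values were seen. IPO4, IPO11 and TNPO3 carry no mark and are given by ranges only. The members and lists were chosen with earlier results of these data known. Alternatives covered normalization, background, probe and member rules, floor, filter, prior and leaving out each line. Slide and scan batches were not analysed here. Protein features were planned and not computed, since no protein sequences were used here.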

Additional observations from a re-analysis of the deposited data

How the results depend on the processing

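Scaling the arrays to the same median of all probes moved the most values: the members' median log2 difference became -0.23 between ES01 and H9 and -0.34 between ES01 and BG03, their median SD 0.20 (0.26 for all genes), and the genes differing at least 1.5-fold 9 between any 2 lines (38.6% of all genes), 6 between ES01 and H9 (24.4%) and 6 between ES01 and BG03 (25.5%), with 2 at 2-fold between ES01 and H9 (7.21%). These 9 were IPO7, IPO8, IPO9, KPNA6, NUP42, NUP58, NUP85, NUP98 and RCC1, without RANBP2. The deposited medians made equal by this scaling, 3.5 to 4.4 units, lie under the background thresholds. Raising the floor to 50 units left 49 members to compare and 2 that differed between any 2 lines (NUP42 and RANBP2, against 17.3% of 8362 genes), 0 between BG03 and H9 (6.85%) and 0 between ES01 and H9 (10.8%, and 0 at 2-fold against 2.7%). The NUP58 difference between BG03 and H9 turned to 0.27 with the 99th percentile background only because the measured 16.9 units in BG03 were replaced by that array's threshold of 30.8, above the 25.5 units of H9. Leaving out each line gave 51 to 52 genes above background in the lines left, 0 past the variance test, and median differences of 0.01 to 0.04 for the pairs left. Of 219 values recomputed under alternatives, 14 moved beyond the tolerance set for them and 1 changed sign. The tolerance was 1.5 times for a count, the members' median SD for a median difference and the gene's own SD over the lines for a single gene, which contains the difference itself, so the number is no measure of stability. No paired analysis was possible because the 3 lines form 1 group with no shared replicate numbers. Each line has 1 array, which limits every difference between lines. Values near the thresholds of 11.2 to 13.3 units are also limited by signal.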
